A study of Homo sapiens with 2 samples.

Results

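Isolated unconverted cytosines were sites that resisted bisulfite in both mammary cell lines while every measured cytosine around them was converted. A site entered the set when at least 10 reads covered it and at least 20% of them were unconverted in both lines, and when at least 1 other cytosine was deposited within 10 nt on the same strand in each line, each of these neighbors below 10% in both lines. Out of 4861524 nuclear cytosines deposited in either line, 836347 were covered by at least 10 reads in both, 4377 of these reached 20% in both, and 68 were isolated in this sense. The 68 sites were thus selected on their methylation ratios in both lines, and these ratios are given below as a description. Of the other sites at 20% or more in both lines, 4297 had a neighbor at 10% or more and 12 had no neighbor in one of the tables.

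The study measured poly(A)+ RNA by RNA bisulfite sequencing (RNA BS-Seq) in MCF10A, a line of normal mammary epithelial cells grown with horse serum, EGF, hydrocortisone and insulin, and in MDA-MB-468, a breast cancer line grown in RPMI with fetal serum. Neither line carried an engineered allele or a treatment according to the labels, and the bisulfite step, at 60 degrees for 8 hours, was shared. There was 1 library per line and no replicate, so the line, its medium and its library cannot be told apart. The MCF10A table held 3146911 cytosines and a total count of 76098976, in which a read counts once for each cytosine it covers, and that of MDA-MB-468 held 3489803 cytosines and a total of 90960018. Over the comparison sites, defined as the 832464 nuclear cytosines with a coverage of at least 10 in both lines and a neighbor in each, 2.20% of the reads were unconverted in MCF10A against 2.01% in MDA-MB-468. The epithelial keratins KRT8 and KRT18 and the basal keratins KRT5 and KRT17 had exonic cytosines covered by 10 reads or more in both lines, and the leukocyte gene PTPRC had none in either. The epithelial markers EPCAM and CDH1 had such cytosines only in MDA-MB-468 (175 and 108) and none in MCF10A. KRT14 had none in either line. Of the fibroblast genes, COL1A1 had 267 in MDA-MB-468 and none in MCF10A, while COL1A2 and PDGFRB had none in either line. The receptor gene EGFR had 1843 in MDA-MB-468 against 750 in MCF10A. The part of these differences in the results below was not tested.

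In RNA, 5-methylcytosine (m5C) is placed by methyltransferases of the NSUN family and by TRDMT1. Bisulfite turns unmodified cytosine into uracil and leaves m5C as cytosine, but it also fails on cytosines held in a stable structure, which tends to leave several nearby cytosines unconverted together. NSUN2, best known for its tRNA sites, is described as favoring a cytosine followed, after any base, by a run of guanines (CNGGG, with the site as its first letter), and NSUN6 as favoring CTCCA. ALYREF, an mRNA export adaptor, and YBX1, an mRNA stability factor, bind m5C in mRNA.

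The sequence that follows the site was not used by the rule. The windows of 21 nt below, taken from GRCh37 and written 5′ to 3′ in the direction of the RNA, show 11 of the 20 sites in CNGGG, chosen as the 8 with a coverage of at least 20 in both lines and 3 further ones that stood out after their values were seen. The capitals mark the site and the triplet of guanines.
EDARADD (3′UTR, overlapping ENO1P1, chr1:236647703-236647723, plus strand): tgaagaggagCtGGGcagcaa
RTN3 (3′UTR, chr11:63526353-63526373, plus strand): ccactatcccCaGGGaaggaa
CSNK1A1 (5′UTR, chr5:148930554-148930574, minus strand): ccagaggtgtCgGGGcttggc
GTF2I (5′UTR, chr7:74072193-74072213, plus strand): gccctgcctgCgGGGcggcca
CTBP1 (5′UTR, chr4:1235985-1236005, minus strand): ttggccctctCaGGGgccccc
SPATA20 (CDS, chr17:48628461-48628481, plus strand): ttgctcaattCaGGGctggag
MEGF6 (CDS, chr1:3431171-3431191, minus strand): gccaggtggtCcGGGgcctcg
RPS3P3 (pseudogene exon, chr3:183868025-183868045, plus strand): acagggtgtgCtGGGcatcaa
PLXNA1 (3′UTR, chr3:126755807-126755827, plus strand): gcctgaggggCtGGGggcccc
QARS1 (5′UTR or CDS by transcript, chr3:49141823-49141843, minus strand): cctcccgactCaGGGataccc
TTLL3 (5′UTR, chr3:9860470-9860490, plus strand): aggggctgagCaGGGtatccc

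The next 6 windows hold only 2 guanines at the positions +2 to +4 after the site, the most frequent arrangement among the 68 sites, and capitals mark the site alone.
SELENOW (3′UTR, chr19:48287648-48287668, plus strand): ctgttgggggCagagattgac
SERP1 (5′UTR, chr3:150264023-150264043, minus strand): ctgagaacctCggcgctccgg
SRSF4 (CDS, chr1:29475154-29475174, minus strand): gtcaaaggagCgggaacatgc
GIPC1 (CDS, chr19:14591216-14591236, minus strand): aggccattaaCgggcagagcc
TMEM219 (CDS, chr16:29979423-29979443, plus strand): agtgctgttcCaggaatccta
CDK5RAP3 (exon of a transcript outside the basic set, chr17:46052082-46052102, plus strand): tcttggttagCgggagtgtgc

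Among the sites with at most 1 guanine at these positions were the site with the lowest p for a difference between the libraries, in NDUFB7, and sites at or near complete nonconversion outside annotated exons, of which 3 are shown with the site in capitals.
NDUFB7 (CDS, chr19:14677641-14677661, minus strand): tgctcaagtgCaagcgtgaca
HFM1 (intron, chr1:91852854-91852874, minus strand): tttgatccttCgatgtcggct
ENSG00000290113 (intron, chr2:126983602-126983622, minus strand): ttattttactCtaagttctgg
intergenic site (no gene, chr9:83704915-83704935, minus strand): ttattctcttCttcctcctcc

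Guanine followed the isolated sites more often than it followed other cytosines. The context CNGGG held 20 of 68 sites, or 29.4% (95% Wilson interval 19.9 to 41.1), against 3.40% of the comparison sites and 7.52% (6.77 to 8.34) of the 4297 unconverted sites with an unconverted neighbor. At least 2 guanines stood at +2 to +4 in 49 of 68 sites, or 72.1% (60.4 to 81.3), against 26.5% of the comparison sites and 29.5% (28.1 to 30.9) of the unconverted sites with an unconverted neighbor. Position by position, guanine was present at +1 in 35.3% of the sites (25 to 47.2) against 16.8% of the comparison sites and 22.3% (21.1 to 23.6) of the unconverted sites with an unconverted neighbor. It was present at +2 in 69.1% of the sites (57.4 to 78.8), at +3 in 69.1% and at +4 in 54.4% (42.7 to 65.7), where the comparison sites had 34.4%, 32.3% and 33.3%. At +5 the share was 33.8%, inside an interval of 23.7 to 45.7 that also held the 32.0% of the comparison sites. The base at +1, which CNGGG leaves free, was A in 27 sites, G in 24, T in 11 and C in 6, so that C took 8.82% (4.11 to 17.9) against 33.2% of the comparison sites. A cytosine within 10 nt is itself a possible neighbor that had to be below 10%. The rule itself thus bears on the shares of all bases at +1 to +4. The unconverted sites with an unconverted neighbor had to hold a cytosine nearby, which bears on their shares too. Among the 636916 comparison sites with every neighbor below 10%, 3.09% were in CNGGG and 26.0% had at least 2 guanines at +2 to +4. These intervals cover counting error only and treat the sites as independent, although some share a gene or lie close together. The intervals of single ratios given below also cover counting error only, since reads without molecular identifiers are not independent molecules.

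**Figure D1:**
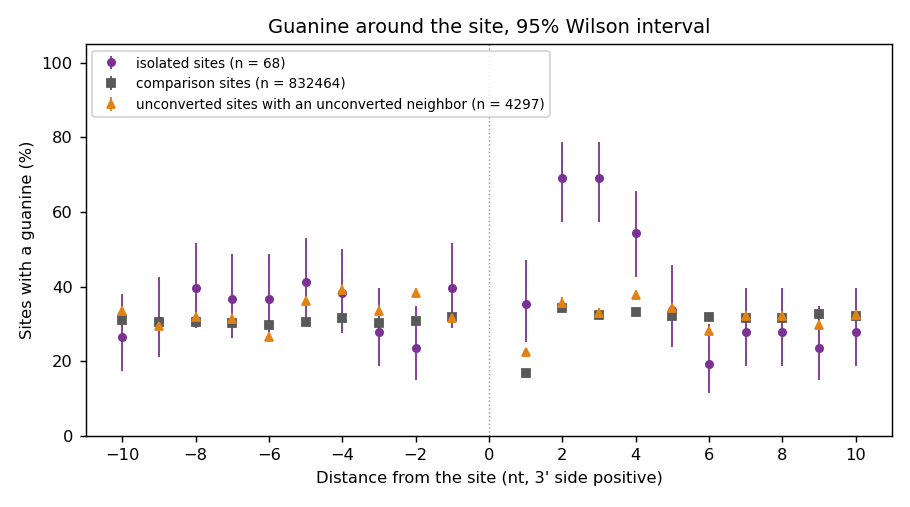
Share of sites with a guanine (%) at each distance from the site in nt, for the 68 isolated sites, the comparison sites and the unconverted sites with an unconverted neighbor, with bars for the 95% Wilson interval. The intervals of the isolated sites stand above both other sets from +1 to +4.

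Below the threshold of the rule, the share of CNGGG was higher the nearer the ratio came to it. Among sites with every neighbor below 10%, it was 3.01% of 626792 sites whose lower ratio of both lines was under 5%, 6.91% of 9601 sites from 5 to 10%, 15.9% of 395 sites from 10 to 15% and 25% of 60 sites from 15 to 20%. Inside the threshold it was 9 of 24 sites from 20 to 30%, 6 of 29 from 30 to 50% and 5 of 15 from 50% up. The sites just outside the threshold therefore did not lack the context. The 3 deepest sites just inside were in SRSF4, ADAM15 and MEGF6. The 3 deepest just outside were in CTSD, which encodes the lysosomal protease cathepsin D, at 17.8% in MCF10A against 18.2% in MDA-MB-468 and in CNGGG, in RBCK1, a subunit of a ubiquitin ligase complex, at 17.1% and 19.4%, and in the basal keratin gene KRT17, at 17.8% and 25.9%.

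The context CTCCA held 0 of 68 sites, which allows a share of up to 4.41% by the limit of 3 counts. The comparison sites had it in 0.601%, so a share of that size was not detectable with 68 sites. No exonic cytosine of NSUN6 reached a coverage of 10 in either line. NSUN2 had 127 such cytosines in MCF10A and 187 in MDA-MB-468, NOP2 225 and 226, and NSUN5 53 and 67. NSUN4 had 20 in MCF10A and none in MDA-MB-468, while NSUN3, NSUN7 and TRDMT1 had none in either line. The readers ALYREF (142 and 120) and YBX1 (223 and 129) were covered in both. Of the oxidation genes, TET3 had 11 and 53, and TET1, TET2 and ALKBH1 had none. None of the 68 sites lay in any of these genes. With 68 isolated sites among 836347 covered in both lines, so few cytosines would be likely to hold none, whatever the genes.

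Around the isolated sites, conversion was near complete. The neighbors within 10 nt, 321 cytosines in MCF10A and 320 in MDA-MB-468, pooled to 1.44% unconverted reads in MCF10A against 1.02% in MDA-MB-468, and 57.9% and 64.7% of them had no unconverted read at all. These values follow in part from the rule, which capped each neighbor at 10%. The number of neighbors per site ran from 1 to 10 with a median of 5 in each line, and 53 of the 68 sites had at least 3 in each. An immediately adjacent cytosine was measured at 17 sites. Its mean ratio was 4.45% at +1 (n = 6) and 2.40% at -1 (n = 12) in MCF10A, and 3.07% and 1.79% in MDA-MB-468.

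**Figure D2:**
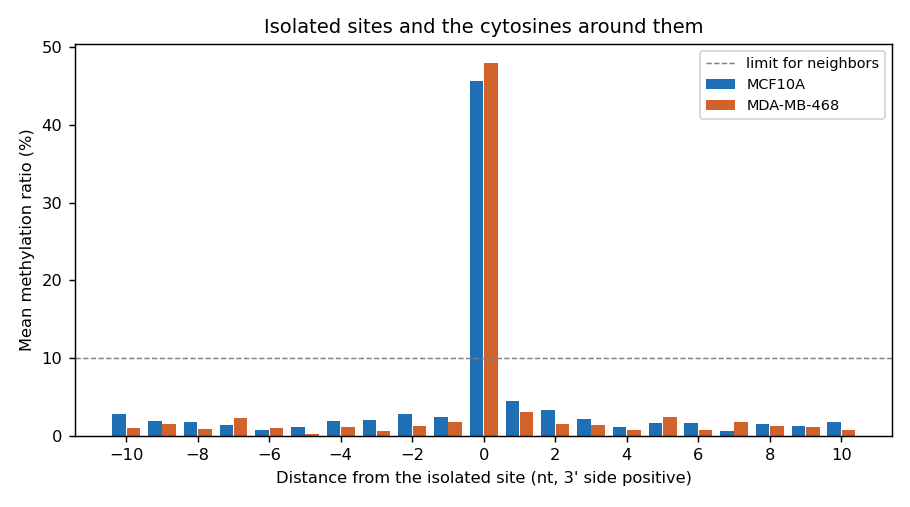
Mean methylation ratio (%) of the 68 isolated sites, at distance 0, and of the cytosines at each distance in nt around them, in MCF10A and MDA-MB-468, with the limit of the rule dashed. The mean stands at 45.7% and 48.0% at the site and below 5% at every other distance, where the rule required each neighbor to be below 10%.

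By the median, the pairing predicted by RNA folding did not set the isolated sites above their own neighbors. The predicted probability of being paired, computed at 70 degrees, had a median of 0.570 over the 68 sites, 0.658 over 298 neighboring cytosines and 0.877 over the 4297 unconverted sites with an unconverted neighbor. It exceeded 0.9 in 25% of the isolated sites (16.2 to 36.4), in 20.5% of the neighbors (16.3 to 25.4) and in 47.2% of the unconverted sites with an unconverted neighbor (45.7 to 48.7). The values spread over nearly the whole range, from 0.0195 to 0.999, with the GIPC1 site at 0.0446 and the SRSF4 site at the top. The NDUFB7 and SELENOW sites, described below, were at 0.906 and 0.956. Of the 20 sites with 3 guanines, 4 were above 0.9, in EDARADD, PLXNA1, CSNK1A1 and GTF2I. Whether pairing kept any of these sites unconverted was not tested. The medians were 0.448 over the 20 sites with 3 guanines, 0.713 over the 29 with 2 and 0.543 over the 19 with 0 or 1.

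Isolated sites were also picked in 1 line alone and then read in the other. The same libraries served for the rule, so all 68 sites are necessarily among those that reached 20% in both directions. The shares below therefore describe overlap and are no independent check of the set. Of 589 sites at 20% or more in MCF10A, with every neighbor of that line below 10%, 83 reached 20% in MDA-MB-468, or 14.1% (11.5 to 17.1), against 0.935% of all sites of the same coverage. Neighbors in the other line were not checked here, and all sites of the same coverage include those with unconverted neighbors. Of 536 sites picked in MDA-MB-468, 86 reached 20% in MCF10A, or 16.0% (13.2 to 19.4), against 1.19%. At a coverage of at least 20 in both lines the shares were 47.4% (36.5 to 58.4) of 76 sites against 0.701%, and 50.7% (39.2 to 62.2) of 69 sites against 0.824%. By context, at a coverage of at least 10, the share was 30.4% (21.3 to 41.2) for CNGGG sites picked in MCF10A and 8.23% (5.68 to 11.8) for sites with 0 or 1 guanine, and in the reverse direction 28.9% (20.3 to 39.4) and 10% (6.96 to 14.2). At a coverage of at least 20 these intervals overlapped in both directions, with 47.4% (27.3 to 68.3) for CNGGG and 33.3% (19.2 to 51.2) for 0 or 1 guanine among sites picked in MCF10A, and 64.3% (38.8 to 83.7) and 40% (23.4 to 59.3) among those picked in MDA-MB-468. The difference between contexts was not tested. With the minimum of 10 reads, most sites picked in 1 library thus did not reach the threshold in the other. With the minimum of 20 reads, 47.4% and 50.7% reached it.

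**Figure D3:**
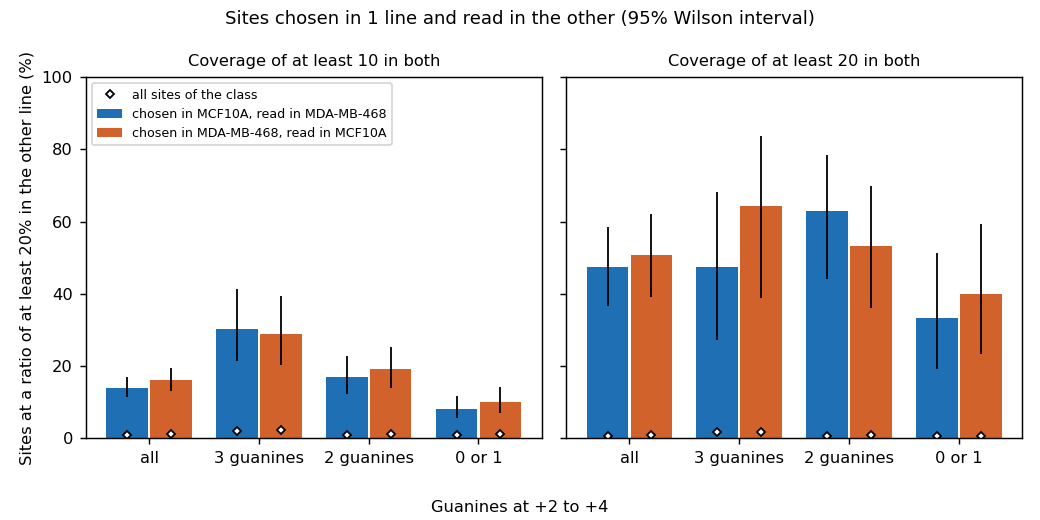
Share (%) of sites picked as isolated in 1 line that reached a ratio of 20% in the other, by the number of guanines at +2 to +4 and at coverage minimums of 10 and 20, with bars for the 95% Wilson interval and diamonds for all sites of the same class. The shares over all classes are 14.1% and 16.0% at the lower minimum and 47.4% and 50.7% at the higher, and every diamond lies below 3%.

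The 68 sites carried 67 gene or locus names on 17 chromosomes, with CTBP1 holding a pair of them. The sites named for GCNT1 and AL161626.1 lay close together on the plus strand (chr9:79186659 and chr9:79186765), so the names are not all separate loci. The coverage of the 68 sites ran from 10 to 417 reads in MCF10A (median 27.0) and from 10 to 1606 in MDA-MB-468 (median 27.5), and 33 had at least 20 reads in both lines. The ratio had a median of 37.3% in MCF10A against 47.0% in MDA-MB-468 and reached 100% in each. At 15 sites it was at least 50% in both lines and at 6 at least 80%. The lower limit of the Wilson interval was above 10% in both lines at 58 sites and above 20% at 32, and 10 sites rested on 3 or fewer unconverted reads in a line. Of the 55 sites on exons of protein-coding transcripts, 11 were in 5′UTRs (20%, 11.6 to 32.4), 26 in coding sequence (47.3%, 34.7 to 60.2) and 18 in 3′UTRs (32.7%, 21.8 to 45.9). The comparison sites on such exons had 9.48%, 68.5% and 22.03%, and the unconverted sites with an unconverted neighbor had 28.8%, 48.4% and 22.8%. A further 4 sites were in noncoding exons, 1 in an exon of a transcript outside the basic set, 7 in introns and 1 outside any gene. In 5′UTRs the median ratio was 36.4% for MCF10A and 50% for MDA-MB-468, in coding sequence 33.3% and 37.6%, in 3′UTRs 34.5% and 37.8%, and in introns 97.8% and 96.5%. At least 2 guanines at +2 to +4 were found at 9 of the 11 sites in 5′UTRs, 20 of the 26 in coding sequence and 14 of the 18 in 3′UTRs, but at 2 of the 7 in introns.

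**Figure D4:**
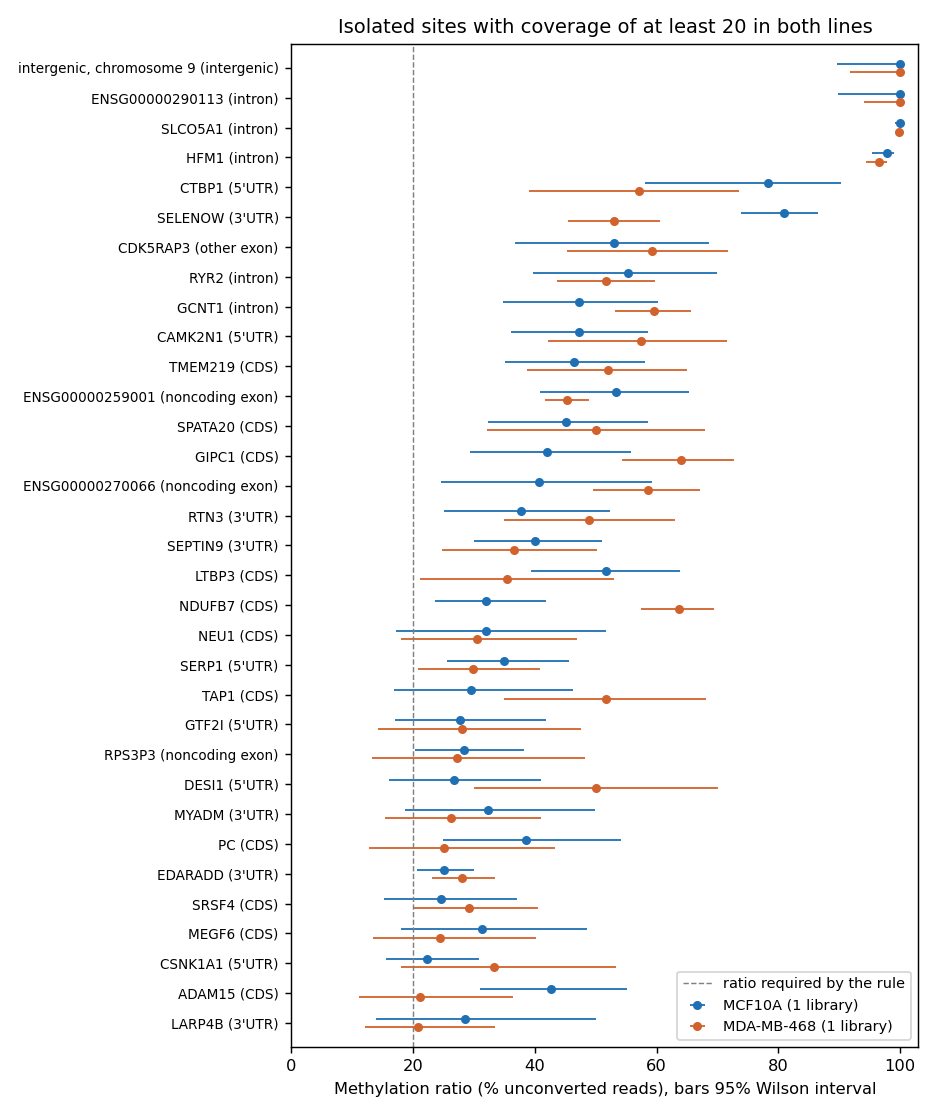
Methylation ratio (% unconverted reads) of the 33 isolated sites with a coverage of at least 20 in both lines, by host gene and region, in MCF10A and MDA-MB-468 (1 library each), with bars for the 95% Wilson interval and a dashed line at the 20% that the rule required. The intervals of the lines are apart at NDUFB7 and SELENOW, and 4 sites stand above 95% in both lines.

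The 5′UTRs held several of the well-covered sites. In SERP1, a protein of the endoplasmic reticulum stress response, the site at chr3:150264033, 111 nt before the start codon in exon 1, had 29 of 83 reads unconverted in MCF10A against 23 of 77 in MDA-MB-468, or 34.9% (25.6 to 45.7) and 29.9% (20.8 to 40.8). In CSNK1A1, which encodes casein kinase 1 alpha, the CNGGG site at chr5:148930564 lay 37 nt before the start codon and had 25 of 112 and 8 of 24 reads unconverted. In GTF2I, a transcription factor gene, the CNGGG site at chr7:74072203 had 13 of 47 and 7 of 25. These 3 sites lay between 22.3 and 34.9% in both lines, and at each the intervals of the lines overlapped. In CTBP1, a transcriptional corepressor, the CNGGG site at chr4:1235995 was higher, with 18 of 23 and 16 of 28 reads unconverted, or 78.3% (58.1 to 90.3) and 57.1% (39.1 to 73.5). The other site of CTBP1, at chr4:1239109 in an intron, was also in CNGGG and had 20 of 21 and 8 of 13. Both CTBP1 sites were thus read as mostly unconverted in both libraries. In CAMK2N1, an inhibitor of the calcium kinase CaMKII, the site at chr1:20812016 had all 10 neighbors below 6% in both lines and 34 of 72 and 23 of 40 reads unconverted.

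Sites in 5′UTRs with less coverage included those of QARS1, the glutaminyl-tRNA synthetase, and TTLL3, a tubulin-modifying ligase, which were picked out after their values were seen. The QARS1 site is in a 5′UTR only in some transcripts and lies 188 nt after the start codon of the transcript that gives its position, and INTS11 likewise counts as 5′UTR only by the order in which regions were assigned. QARS1 (chr3:49141833) had 31 of 41 reads unconverted in MCF10A against 7 of 10 in MDA-MB-468, and TTLL3 (chr3:9860480) 7 of 12 and 8 of 10. The guanine triplet follows the site after an adenine in both windows shown above. With 10 reads in a line, the intervals were wide, from 39.7 to 89.2% for QARS1 and from 49.0 to 94.3% for TTLL3 in MDA-MB-468.

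In coding sequence, NDUFB7, an accessory subunit of respiratory complex I, had the deepest site (chr19:14677651, exon 2), described below with the difference between the libraries. In SRSF4, a splicing factor of the SR family, the site at chr1:29475164 had 14 of 57 reads unconverted in MCF10A against 21 of 72 in MDA-MB-468, or 24.6% and 29.2%. In TMEM219, a membrane protein gene, the site at chr16:29979433 had 32 of 69 and 27 of 52, or 46.4% and 51.9%. In GIPC1, a PDZ adaptor protein, the site at chr19:14591226 had 21 of 50 and 64 of 100, or 42.0% (29.4 to 55.8) and 64% (54.2 to 72.7). GIPC1 was higher in MDA-MB-468 at an unadjusted p of 0.0142 by Fisher's exact test, but its adjusted p was 1. The CNGGG sites of SPATA20 (chr17:48628471, 23 of 51 and 13 of 26) and MEGF6, an EGF-repeat protein (chr1:3431181, 10 of 32 and 9 of 37), had overlapping intervals in the lines. ADAM15, a membrane metalloprotease (chr1:155030158), had 26 of 61 and 8 of 38, or 42.6% and 21.1%, with an adjusted p of 1 by the same test. The remaining coding sites with a coverage of at least 20 in both lines, in LTBP3, PC, TAP1 and NEU1, had ratios between 25% and 51.7% in both lines.

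In 3′UTRs, the deepest site was assigned to EDARADD, an adaptor of the ectodysplasin receptor, at chr1:236647713 in CNGGG, with 79 of 316 reads unconverted in MCF10A against 80 of 286 in MDA-MB-468. Its ratios, 25% (20.5 to 30.1) and 28.0% (23.1 to 33.4), differed by 2.97 points, with an interval of the difference from -4.06 to 10.02. The exon also holds ENO1P1, a pseudogene of the glycolytic enzyme enolase, so the reads cannot be assigned to EDARADD with certainty. In RTN3, a protein that shapes the endoplasmic reticulum, the CNGGG site at chr11:63526363 had 17 of 45 and 22 of 45, with 1 near copy of its window elsewhere in the genome. In SEPTIN9, a cytoskeletal GTP-binding protein, the site at chr17:75494948 had 32 of 80 and 19 of 52. The CNGGG site of PLXNA1, a semaphorin receptor (chr3:126755817), picked out after its values were seen, had the highest ratios among the mRNA exons, with 17 of 18 reads and 23 of 27, or 94.4% (74.2 to 99.0) and 85.2% (67.5 to 94.1). All 6 of its neighbors were below 6% in both lines.

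On noncoding RNAs, ENSG00000259001, a lncRNA on chromosome 14 (chr14:20811393), had 32 of 60 reads unconverted in MCF10A against 321 of 710 in MDA-MB-468, or 53.3% (40.9 to 65.4) and 45.2% (41.6 to 48.9). ENSG00000270066, a lncRNA on chromosome 1 (chr1:109643130), had 11 of 27 and 68 of 116. All 8 neighbors of the latter were below 4% in both lines. Shorter noncoding RNAs that the annotation used here does not name may overlap both of these lncRNAs, so which RNA either ratio describes was not settled. The site of RPS3P3 (chr3:183868035, CNGGG), a processed pseudogene of a ribosomal protein gene, had 27 of 95 and 6 of 22, with 4 near copies of its window in the genome, each with a cytosine at the site. In an exon outside the basic set, the site of CDK5RAP3, an adaptor of the UFM1 modification pathway (chr17:46052092), had 18 of 34 and 29 of 49.

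All 5 sites at 95% or more in both lines lay in introns or outside any gene. In an intron of SLCO5A1 on chromosome 8, at position 70602496, 417 of 417 reads were unconverted in MCF10A against 1603 of 1606 in MDA-MB-468, while its 3 neighbors stayed below 3%. In an intron of HFM1 (chr1:91852864), 273 of 279 and 466 of 483 reads were unconverted, or 97.8% (95.4 to 99.0) and 96.5% (94.4 to 97.8), and its 4 neighbors stayed below 5%. Both windows have copies without a mismatch on the unplaced scaffold GL000220.1, 665 nt apart there. That scaffold is known to carry ribosomal RNA genes, and large-subunit ribosomal RNA is a known carrier of m5C placed by NSUN5 and NOP2. Whether the reads came from the introns or from such copies was not tested. A site in an intron of RYR2 (chr1:237766545) had 21 of 38 and 75 of 145 reads unconverted. Its window resembles the same scaffold too, but none of its 5 near copies had a cytosine at the site.

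The sites without a converted read in either line lay in an intron of the lncRNA ENSG00000290113 (chr2:126983612, 34 of 34 and 60 of 60), in an intron of the lncRNA ENSG00000227240 (chr1:193831512, 10 of 10 and 13 of 13) and outside any gene (chr9:83704925, 33 of 33 and 43 of 43). Their measured neighbors, 1, 1 and 3 in number, had no unconverted read. The window of ENSG00000290113 had 1260 near copies in the genome, only 45 of them with a cytosine at the site, and that of ENSG00000227240 had 122973. The intergenic window had none. Of all 68 sites, 10 had a near copy, and without these CNGGG held 31.03% of the other 58.

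Coverage at the site itself was close to that of its neighbors in most of the set. The coverage of the site over the median coverage of its neighbors had a median of 1 in each line, and it was between 0.5 and 2 in both lines at 64 sites. The exceptions were SLCO5A1 (0.343 in MCF10A and 0.330 in MDA-MB-468), GCNT1 (0.0135 and 0.00841), the microRNA gene AL161626.1 (0.159 and 0.0842) and RPL35, a ribosomal protein gene (0.256 and 0.388), named because of these values. At the GCNT1 intron site (chr9:79186659) only 55 and 235 reads were counted beside neighbors with a median of 4063 and 27957. The ratios there were 26 of 55 and 140 of 235. The tables list only unconverted and converted counts, and the source of the gap in coverage was not tested.

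At 36 of 68 sites the ratios of the lines were within 10 points of each other, and 31 sites were higher in MDA-MB-468, 32 in MCF10A and 5 equal. Across the 68 sites, which share libraries and were all cut at 20% in both lines, Pearson's r between the lines was 0.732 and Spearman's rho 0.620. Over the 29 sites with a coverage of at least 20 in both lines and a ratio under 95% in each, r was 0.502 and rho 0.520. The ratios of sites with 3 guanines had medians of 31.01% in MCF10A and 41.1% in MDA-MB-468 (n = 20), those with 2 guanines 38.5% and 50% (n = 29), and those with 0 or 1 guanine 47.3% and 57.1% (n = 19). Without near copies, the last medians were 44.5% and 37.8% (n = 12), so in MDA-MB-468 they no longer stood above those of the other classes.

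**Figure D5:**
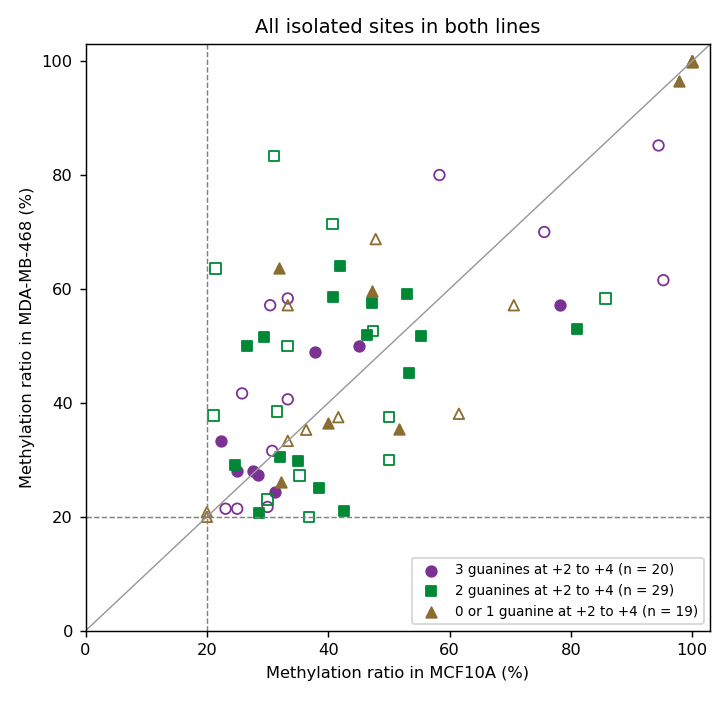
Methylation ratio (%) of all 68 isolated sites in MCF10A (x axis) and MDA-MB-468 (y axis), by the number of guanines at +2 to +4, with open symbols for sites under a coverage of 20 in either line, the diagonal, and dashed lines at the 20% that the rule required. The open symbols scatter more widely around the diagonal, and the 5 sites above 95% in both lines have 0 or 1 guanine.

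Differences between the libraries were called at 2 of the 68 sites by a two-sided Fisher's exact test on the read counts, with Benjamini-Hochberg adjustment over all 836347 sites at 0.05, where 0.0942% of all sites were called. Only 4377 of all these sites reached 20% in both lines, so the share over all sites is not matched to the 68 in ratio. The test compares 1 library with 1 library and not the lines, and because the rule required 20% in both lines, a site lost in a line could not appear here. In NDUFB7, 31 of 97 reads were unconverted in MCF10A against 154 of 242 in MDA-MB-468, or 32.0% (23.5 to 41.8) and 63.6% (57.4 to 69.4), so the intervals did not overlap. The difference was 31.7 points (interval 20.1 to 41.9), with an adjusted p of 0.000281 by Fisher's exact test, beside 0.0158% of all sites called higher in MDA-MB-468. In SELENOW, which encodes selenoprotein W, the site in the 3′UTR (chr19:48287658) went the other way, with 119 of 147 reads unconverted in MCF10A against 87 of 164 in MDA-MB-468, or 81.0% (73.8 to 86.5) and 53.0% (45.4 to 60.5). It fell by 27.9 points from MCF10A to MDA-MB-468 (interval -37.3 to -17.6), with an adjusted p of 0.000347 by the same Fisher's exact test, beside 0.0784% of all sites called higher in MCF10A. All 4 neighbors of the NDUFB7 site and both of the SELENOW site were below 4% in each line. Without adjustment, 7 of the 68 sites had a p below 0.05. Both called sites were among the 5 of highest coverage in the set by the lower of both lines, and 35 sites had fewer than 20 reads in a line.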

How the data were processed

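RNA BS-Seq counts were analysed for MCF10A and MDA-MB-468, 1 library each. Following the methods, the authors trimmed reads with Trim Galore, aligned them to hg19 with MeRanGs and called cytosines with MeRanCall of MeRanTK, ignoring biased read ends, with a minimum base quality and limited read duplication. The submitters' processing notes name Trim Galore and Bismark; versions were not given in the sources used here. The deposited tables hold counts of unconverted and converted reads per cytosine, without normalization, start at a coverage of 5 and carry no exon or structure filter. Duplicate reads and reads from near-identical copies can therefore move a ratio.

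The tables were joined on chromosome, position and strand, and mitochondrial sites were left out. Every nuclear position, 3142952 in MCF10A and 3486293 in MDA-MB-468, fell on a cytosine of GRCh37. Genes came from GENCODE release 44 mapped to GRCh37, with regions of basic transcripts taken in the order 5′UTR, CDS, 3′UTR. Near copies were BLAST 2.17.0 matches of the 61 nt window over at least 50 nt. Pairing was computed with RNAplfold of ViennaRNA 2.7.2 in windows of 300 nt with a span of 150 nt at 70 degrees. Intervals are 95% Wilson intervals, and those of differences combine the Wilson limits of both lines. Fisher's exact test was run per site on all 836347 sites with Benjamini-Hochberg adjustment. Both were purpose-written code in Python 3.11.15 with numpy 2.4.6 and numba 0.67.0. The code was first tested on simulated data, where its p-values were compared with those of scipy 1.17.1. QNB, the method of the study for differences, was not installed here and was not used. Alternatives are given in the closing section.

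The isolated sites, gene lists and tests were chosen with earlier results of these data known. Named sites had a coverage of at least 20 in both lines and were the 8 of highest lower ratio, the 8 of highest lower coverage, up to 8 in each of CNGGG and CTCCA, up to 5 on noncoding RNAs, up to 5 called between the libraries, and 3 on each side of the ratio threshold at the highest coverage. Other named sites were chosen after their values were seen.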

Additional observations from a re-analysis of the deposited data

How the results depend on the processing

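The number of isolated sites was 33 with a coverage of at least 20 in both lines, 44 with a ratio of at least 30%, 26 with neighbors below 5%, 93 and 49 with windows of 5 and 20 nt, 53 with at least 3 neighbors in each line and 59 on exons of basic transcripts, against 68. The share in CNGGG went from 29.4% to 72.1% when 2 of 3 guanines were enough, and stayed between 24.2 and 32.2% with a coverage of at least 20, at least 3 neighbors, exons only, no near copies or windows along the spliced transcript. The share in 5′UTRs was 26.1% at a coverage of at least 20 and 16.4% with CDS taken before the UTRs, against 20%. CTCCA held 0 sites under the coverage, neighbor and exon alternatives and 4.41% with 1 mismatch. The same count of 2 sites differed between the libraries at a coverage of at least 20, on exons only and with a log odds test, and NDUFB7 (adjusted p 0.000221 to 0.000532) and SELENOW (0.000271 to 0.000859) were called each time. Of sites picked in 1 line, 47.4% (MCF10A) and 50.7% (MDA-MB-468) reached the threshold in the other line at a coverage of at least 20, against 14.1% and 16.0%, and 13.4% and 14.7% on exons; the cause was not tested. The median predicted pairing was 0.559 at a coverage of at least 20 against 0.570. The alternatives for sites picked in 1 line, for pairing, for near copies and for spliced windows were added after seeing the data. No paired analysis was possible because each line had 1 library, and for the same reason no library could be left out. At the lowest coverage of 10 reads, 2 unconverted reads make 20%, as at the GPSM1 site, where the interval ran from 5.67 to 51.0%.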
